A study of Mus musculus with 2 samples.

Results

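The genes described here are 8 genes of antigen presentation by MHC class II: H2-Aa, H2-Ab1, H2-Eb1, H2-DMa, H2-DMb1, H2-DMb2, Cd74 and Ciita. They were chosen by symbol, and all 8 were found among the 31053 genes of the deposited tables. The recipients were aged C57BL/6J mice, and their bone marrow was profiled after transplantation of faecal microbiota from young mice (FMT_young) or from aged mice (FMT_aged), so both groups shared the transplantation itself. Each group was 1 library of the 10x Genomics 3′ kit v3, made from sorted whole marrow, Lin- and Lin- cKit+ cells in parts of 1 to 1 to 4, which sets the share of every cell type below. The labels do not give the exact age or the sex of the mice or the number of mice in a library.

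After cell calling and removal of doublets, 10793 FMT_young cells and 10320 FMT_aged cells were kept, with medians of 11013 and 11610 unique molecular identifiers (UMIs, counted RNA molecules) per cell. The libraries shared 32 cell barcodes, where 16.4 would be shared by chance, and no cell was removed for this. Cell types were rebuilt here from marker genes, with the class II genes kept out of the clustering, and 12 named classes with at least 50 cells in each library were compared. Clusters that could not be named held 20.9% of FMT_young cells and 14.7% of FMT_aged cells. A level is a CPM value, the sum of a gene's UMIs over the cells of a class scaled to the same total for every class. Each ratio is a log2 ratio with FMT_young on top. Intervals, given in square brackets, are 95% intervals that cover counting error only. With 1 library per group there is no replicate error and no test, so the values compare these libraries and not the treatments.

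MHC class II molecules hold peptides from material taken up by the cell and show them to CD4 T cells, mainly on dendritic cells, B cells and macrophages. H2-Aa and H2-Ab1 encode the alpha and beta chains of I-A, and H2-Eb1 encodes the beta chain of I-E, whose alpha chain is not made in the C57BL/6 strain. The invariant chain, encoded by Cd74, fills the peptide groove during transport, and the H2-DM heterodimer, an H2-DMa chain with an H2-DMb1 or H2-DMb2 chain, exchanges its last fragment for antigenic peptide. Ciita is a coactivator that does not bind DNA itself and is recruited to class II promoters by RFX, CREB and NF-Y bound at the X and Y boxes.

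The members other than Cd74 and Ciita lie in the MHC region of chromosome 17 in GRCm38 (GENCODE vM21). In order along the chromosome these are H2-DMa (34119541 to 34139101), H2-DMb2 (34143307 to 34151555), H2-DMb1 (34153072 to 34160230), H2-Ab1 (34257689 to 34269419), H2-Aa (34282744 to 34287823) and H2-Eb1 (34305867 to 34316674). H2-Aa is on the minus strand and the others are on the plus strand. The RefSeq promoter table (GRCm38.p6, 250 bases before to 50 after each gene start) held windows for 5 of the 8 members. The stretches printed here were chosen to show the letters that promoters of classical chains and of a DM beta chain share. Capitals mark, in H2-Aa and H2-Eb1, the letters GCAAC (part of the X box) and ATTGG (core of the Y box), and, in H2-DMb2, the letters AACNNNTGATG and ATTGG. The H2-DMb2 pattern was chosen after its sequence had been read. The H2-DMb2 stretch lies before a RefSeq start but within the GENCODE span of that gene, outside its exons.
H2-Aa, chr17:34287855-34287916, minus strand: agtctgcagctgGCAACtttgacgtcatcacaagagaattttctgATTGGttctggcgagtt
H2-Eb1, chr17:34305764-34305824, plus strand: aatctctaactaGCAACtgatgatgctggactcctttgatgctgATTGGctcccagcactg
H2-DMb2, chr17:34145116-34145175, plus strand: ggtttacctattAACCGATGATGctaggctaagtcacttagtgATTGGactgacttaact

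The starts of the marked motifs lay 33 bases apart in H2-Aa, 32 in H2-Eb1 and 31 in H2-DMb2. The H2-DMb1 window held the H2-DMb2 pattern with the same spacing of 31 bases, within an exon of GENCODE's H2-DMb1 transcript. Over both strands of all 32851 promoter windows of 27025 genes, ATTGG was found in 37.4% and GCAAC in 35.2%, while GCAAC followed by ATTGG at 20 to 45 bases was found in 407 windows (1.24%). AACNNNTGATG followed by ATTGG, with a gap of limited length, was found in 9 windows (0.0274%), among them those of H2-DMb1, H2-DMb2 and H2-Eb1. The match in H2-DMb2 was fixed by the choice of the pattern, so this share is a description only. Neither of the H2-DMa windows held either pair. These are matches of letters and do not show binding. In the same annotation Cd74 lies on chromosome 18 (60803848 to 60812652) and Ciita on chromosome 16 (10480059 to 10528418), both on the plus strand.

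Across the 12 classes the summed level of the 8 genes ran over more than 2 orders of magnitude. In the FMT_young library it was 19594 CPM in conventional dendritic-like cells and 19107 CPM in mature B-like cells. Plasmacytoid dendritic-like cells followed with 5597 CPM, monocyte-like cells with 4244 CPM, plasma cell-like cells with 1314 CPM and HSC-like cells with 1015 CPM. Every neighbouring pair among these 6 classes was apart by more than its counting intervals. Below them, T, NK or innate lymphoid-like cells (423.7 CPM) and MPP-like cells (421.0 CPM) overlapped, and the lowest level was 53.9 CPM, in neutrophil-like cells. The FMT_aged library had the same 6 classes in the same order, from 32436 CPM in conventional dendritic-like cells and 14464 CPM in mature B-like cells to 3186 CPM in plasma cell-like and 921.6 CPM in HSC-like cells. The log2 ratio of conventional dendritic-like over mature B-like cells was 0.04 in FMT_young and 1.17 in FMT_aged, with a mean of 0.60. Free RNA, measured in barcodes with fewer than 100 UMIs, had 1195 CPM in FMT_young and 1581 CPM in FMT_aged. The summed level of HSC-like cells and of all classes below them was thus under that of free RNA in both libraries, and that of plasma cell-like cells was 1314 CPM beside 1195 CPM in FMT_young. This compares levels and does not give the share of free RNA in the cells.

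**Figure D1:**
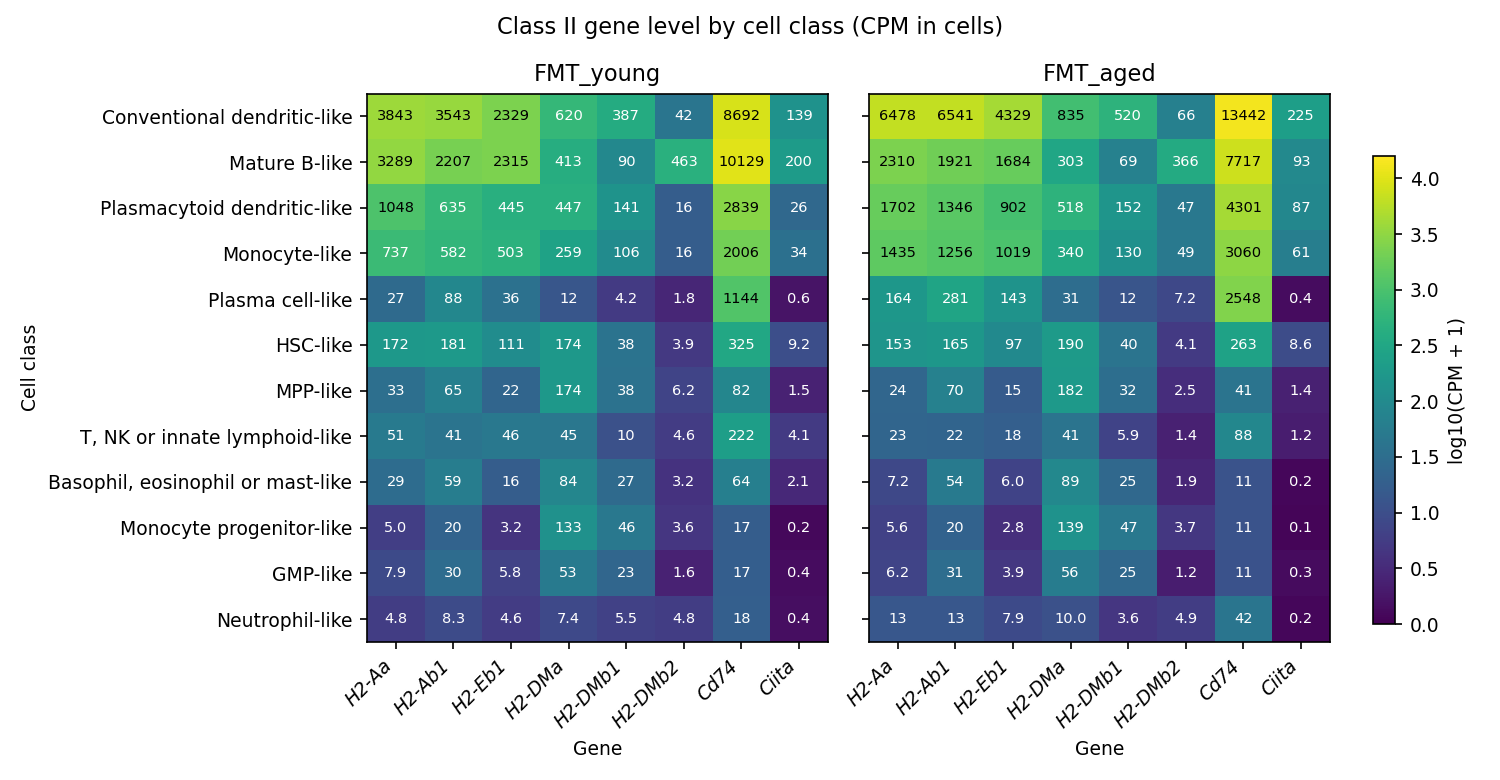
Levels of the 8 genes (columns) in the 12 named cell classes (rows), with FMT_young in the left panel and FMT_aged in the right; the number in each cell is the CPM of UMIs summed over the class, and colour is log10(CPM + 1). The classical chains and Cd74 are high in conventional dendritic-like and mature B-like cells, while H2-DMa still reads 133.3 and 139.4 CPM in monocyte progenitor-like cells, where H2-Aa reads 4.96 and 5.59 CPM.

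The members did not share 1 order of classes. The classical chains H2-Aa and H2-Ab1 were highest in conventional dendritic-like cells in both libraries. H2-Eb1 was level there and in mature B-like cells in FMT_young (2329 and 2315 CPM, intervals overlapping), but not in FMT_aged (4329 and 1684 CPM). Cd74 was highest in mature B-like cells in FMT_young (10129 CPM) and in conventional dendritic-like cells in FMT_aged (13442 CPM), and so was Ciita, with 200.03 CPM and 224.7 CPM. The peptide editor genes H2-DMa and H2-DMb1 were highest in conventional dendritic-like cells and ranged less than the chains they serve. H2-DMb2 was highest in mature B-like cells.

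A large part of the class II transcripts came from few cells. Conventional dendritic-like cells were 2.06% of FMT_young cells and 2.64% of FMT_aged cells and held 36.0% and 45.9% of the members' UMIs. Mature B-like cells held 13.4% and 14.5% of them, and plasma cell-like cells held 13.3% and 14.1%, of which Cd74 was 87.1% and 79.98%. HSC-like cells held 2.59% in FMT_young and 1.99% in FMT_aged. For H2-DMb2 the largest holder was mature B-like cells, with 46.0% and 53.0% of its UMIs. For H2-DMb1, monocyte progenitor-like cells held 26.0% and 23.7%, and conventional dendritic-like cells held 20.8% and 26.8%. Within a class, Cd74 took 44.4% of the members' UMIs in FMT_young and 41.4% in FMT_aged conventional dendritic-like cells, 53.0% and 53.4% in mature B-like cells, and 32.1% and 28.5% in HSC-like cells. In monocyte progenitor-like cells the first place went to H2-DMa, with 58.3% and 60.8%. For Cd74 in the first 3 of these classes, the libraries lay closer to each other than the classes did.

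**Figure D2:**
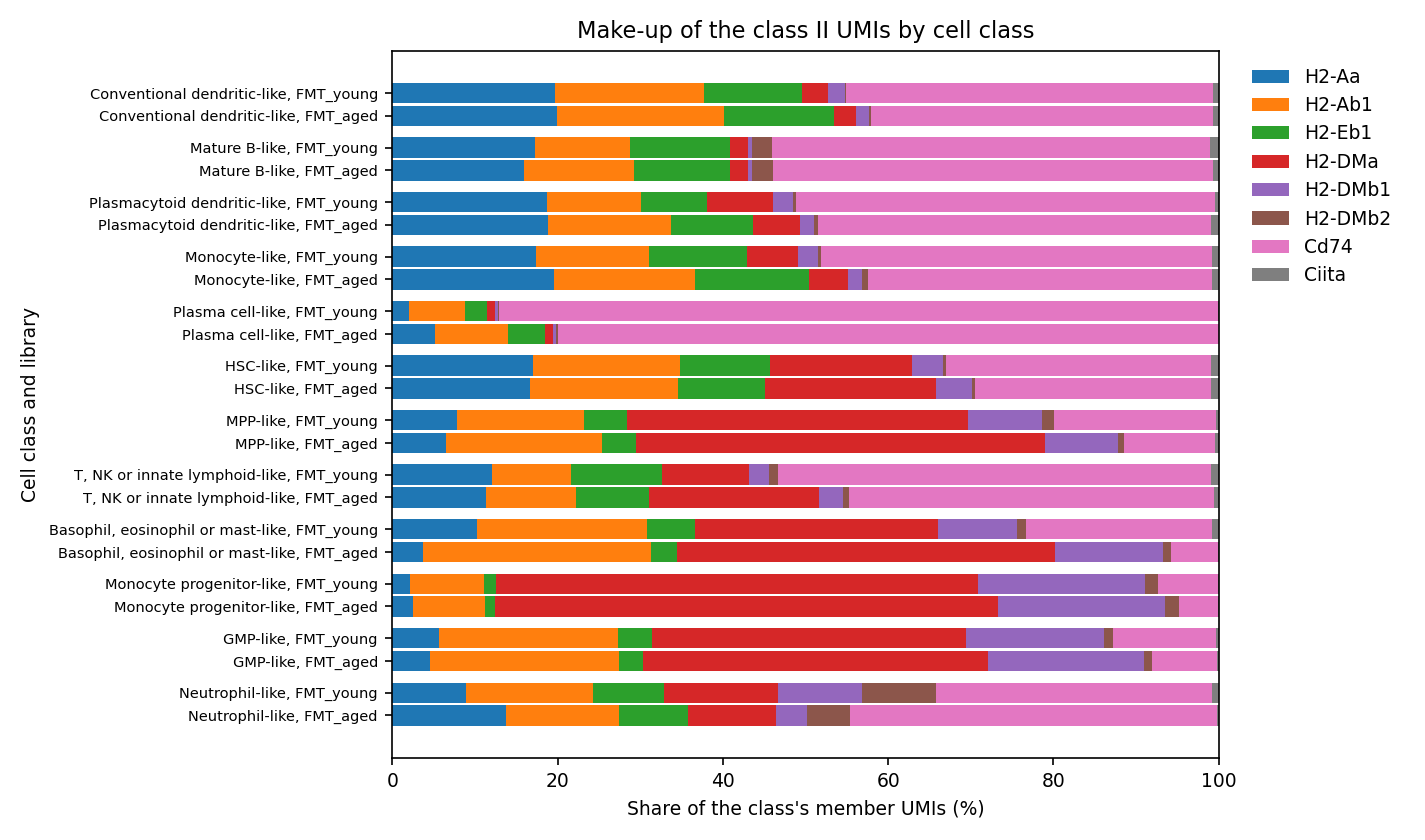
Make-up of the class II transcripts, as the share in percent of a class's member UMIs taken by each gene (horizontal axis, stacked colours), with a bar for each class and library and FMT_young above FMT_aged. Cd74 takes 87.1% and 79.98% in plasma cell-like cells, and H2-DMa takes 58.3% and 60.8% in monocyte progenitor-like cells.

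The paired DM beta genes divided by cell type. In mature B-like cells H2-DMb1 had 90.0 CPM in FMT_young and 69.3 CPM in FMT_aged, and H2-DMb2 had 462.6 CPM and 366.4 CPM. H2-DMb2 therefore made up 83.7% and 84.1% of the UMIs of both genes in these cells. In conventional dendritic-like cells it made up 9.77% and 11.2%, in HSC-like cells 9.24% and 9.36%, and in monocyte progenitor-like cells 7.26% and 7.37%. The libraries stood close together in those classes and apart in monocyte-like cells (13.3% and 27.5%) and plasmacytoid dendritic-like cells (10.2% and 23.4%, the FMT_aged value from 54 cells). The longest transcripts of H2-DMb1 and H2-DMb2 were 94.6% identical over 1219 aligned bases and 74.8% identical over the last 300 bases, where the longest shared run was 23 bases. Reads of a 3′ kit that fall upstream of that end could match both genes, and how the authors' counting treated them was not tested.

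**Figure D3:**
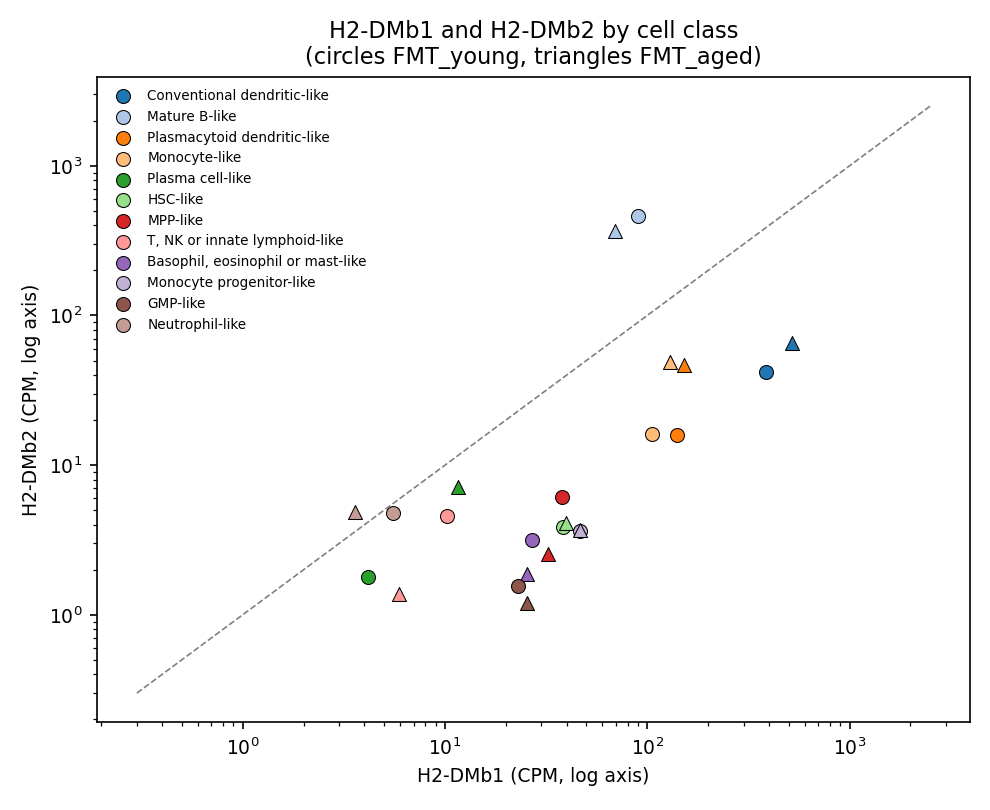
H2-DMb1 level (horizontal axis, CPM, log scale) against H2-DMb2 level (vertical axis, CPM, log scale), 1 point per class and library, with circles for FMT_young, triangles for FMT_aged and a dashed line where both levels are equal. The mature B-like points stand above the line at 90.0 and 69.3 CPM of H2-DMb1 with 462.6 and 366.4 CPM of H2-DMb2, while conventional dendritic-like points lie at 386.8 and 520.4 CPM with 41.9 and 65.8 CPM.

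The alpha and beta chains of I-A also differed in balance between classes. UMIs of a gene cannot be compared with those of another gene as amounts of RNA without their lengths, so the balance is compared between classes only. H2-Ab1 made up 48.0% in FMT_young and 50.2% in FMT_aged of the UMIs of H2-Aa and H2-Ab1 together in conventional dendritic-like cells, and 40.2% and 45.4% in mature B-like cells. In GMP-like cells it made up 79.2% and 83.3%, and in monocyte progenitor-like cells 80.5% and 78.3%. HSC-like cells, with 51.2% and 51.8%, were close to the dendritic class.

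In conventional dendritic-like cells (222 in FMT_young, 272 in FMT_aged) all 8 genes were lower in FMT_young. The summed level was 19594 CPM in FMT_young [19440, 19749] and 32436 CPM in FMT_aged, a log2 ratio of -0.73 [-0.74, -0.71]. Among the classical chains, H2-Aa had 3843 CPM in FMT_young and 6478 CPM in FMT_aged (log2 ratio -0.75 [-0.79, -0.72]). H2-Ab1 had 3543 CPM and 6541 CPM (-0.88 [-0.92, -0.85]). These chains and H2-Eb1, with 2329 CPM in FMT_young and 4329 CPM in FMT_aged (-0.89 [-0.93, -0.85]), differed most. The invariant chain gene Cd74 had 8692 CPM in FMT_young and 13442 CPM in FMT_aged (-0.63 [-0.65, -0.61]). The coactivator gene Ciita had 138.7 CPM and 224.7 CPM (-0.70 [-0.87, -0.53]). The editor genes H2-DMa (620.4 and 835.5 CPM, -0.43) and H2-DMb1 (386.8 and 520.4 CPM, -0.43) differed less, and H2-DMb2 had 41.9 CPM in FMT_young and 65.8 CPM in FMT_aged (-0.65 [-0.97, -0.34]).

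Of the 8 genes, 6 were lower by 1.5-fold or more, where 5.01% of the 9149 genes of this class with at least 30 UMIs were that much lower and 13.2% differed that much in either direction. The members' median log2 ratio was -0.67, beside 0.05 over all genes of the class. With every cell thinned to 2000 UMIs, the median cell held 39 UMIs of the members in FMT_young and 71 in FMT_aged, and the lower quartiles were 9.75 and 37. Cells with 100 or more were 5.91% and 26.1%, and cells with none were 7.27% and 1.84%. UMIs of both I-A chains were found in 74.5% of thinned cells in FMT_young and 91.5% in FMT_aged. The difference thus lay along the whole range of cells, at the high end and at the low end.

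The dendritic class itself differed in makeup between the libraries. Its 11 marker genes summed to 1511 CPM in FMT_young and 2432 CPM in FMT_aged. Of these genes 8 were lower in FMT_young, among them Xcr1 (168.5 and 265 CPM), Clec9a (125 and 190 CPM) and Naaa (498 and 979 CPM), and 3 were higher: Clec10a (18.1 and 8.87 CPM, 1.03 [0.37, 1.71]), Ccr7 (4.44 and 1.14 CPM) and Cd209a (14.3 and 12.02 CPM, 0.25 [-0.39, 0.89]). Genes of less mature or other cells did not all stand the same way. The monocyte marker Ly6c2 had 521 CPM in FMT_young and 246 CPM in FMT_aged, the proliferation gene Mki67 had 501 and 284 CPM, and Mpo, a granule enzyme of granulocyte and monocyte progenitors, had 314 and 216 CPM. The progenitor gene Kit had 73.9 CPM in FMT_young and 98.7 CPM in FMT_aged, and the 12 neutrophil markers summed to 618 and 1741 CPM. A Kit UMI was found in 59.3% of the cells of both libraries together. Other summed lists were higher in FMT_young. The monocyte markers had 2483 CPM in FMT_young and 1966 CPM in FMT_aged, the GMP markers 1170 and 704 CPM, and the plasmacytoid dendritic markers 852 and 485 CPM. The summed plasma cell markers were 1346 CPM in FMT_young and 210 CPM in FMT_aged. The share of free RNA estimated from immunoglobulin genes was 16.2% and 5.17%. That estimate counts every immunoglobulin UMI as free RNA, so it cannot separate free RNA from plasma or B cell RNA captured with a cell. The mature B markers summed to 180 and 160 CPM, with Pax5, Fcer2a and Cr2 at 0. Among cells with a UMI of Xcr1 or Clec9a (149 and 207 cells) the summed level was 22654 CPM in FMT_young and 36214 CPM in FMT_aged, a log2 ratio of -0.68. Among the 26 and 55 cells with no UMI of Ly6c2 or Mpo it was 35964 CPM and 41586 CPM, a ratio of -0.21 [-0.24, -0.18], and H2-DMb2 had a ratio of 0.46 [-0.22, 1.13] there, from 34 and 47 UMIs. Among the 196 and 217 cells with such a UMI it was 17859 CPM and 30630 CPM (-0.78). The parts of maturation, of other cell types and of free RNA in the difference were not tested.

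**Figure D4:**
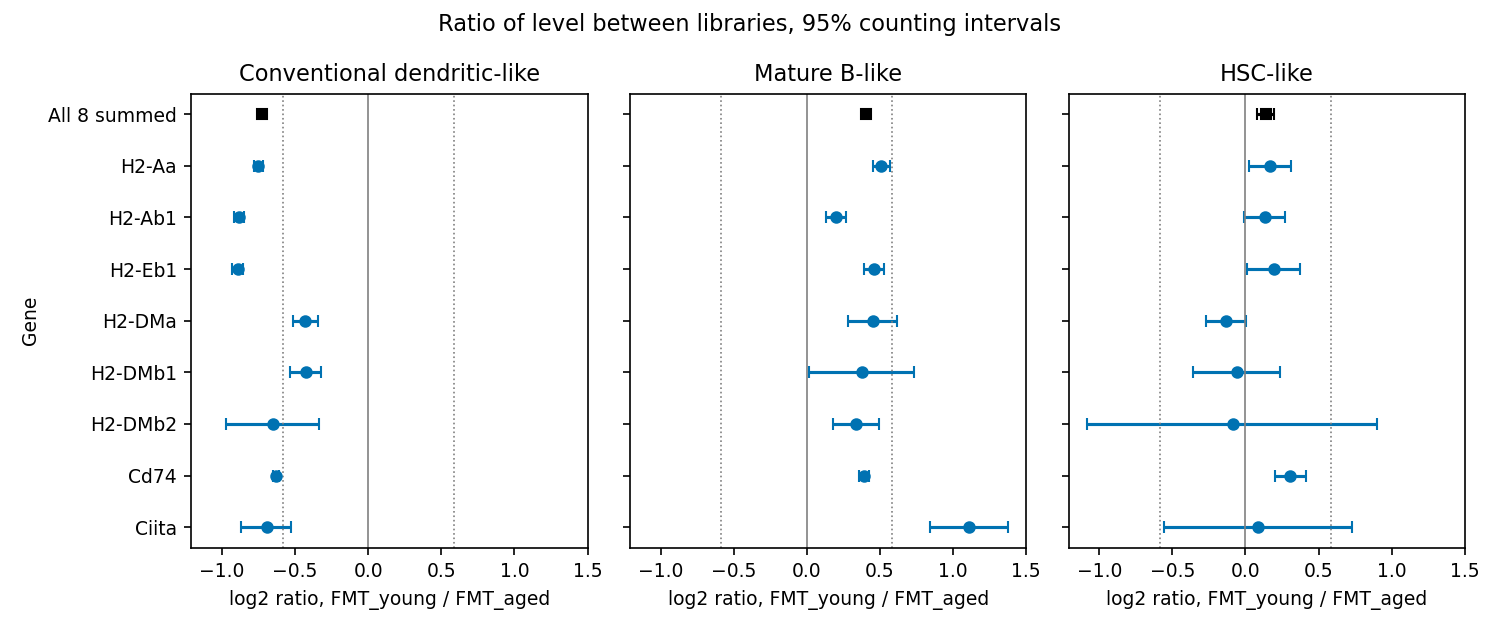
Log2 ratio of FMT_young over FMT_aged (horizontal axis) for each gene and for the sum (squares) in conventional dendritic-like, mature B-like and HSC-like cells, with bars for the 95% counting intervals and dotted lines at 1.5-fold. All 8 genes lie below 0 in the dendritic class (sum -0.73) and above 0 in the B class (sum 0.40), and in HSC-like cells they lie between -0.13 and 0.31.

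In mature B-like cells (319 and 490) the direction was the opposite, and all 8 genes were higher in FMT_young, although the direction turned in 6 of 13 alternative settings for H2-Ab1 and in 1 of 13 each for H2-DMb1 and H2-DMb2. The summed level was 19107 CPM in FMT_young and 14464 CPM in FMT_aged (0.40 [0.38, 0.43]). Ciita differed most, with 200.03 CPM in FMT_young and 92.6 CPM in FMT_aged (1.11 [0.84, 1.38]), from 240 and 230 UMIs. It was found in 48.0% of FMT_young cells and 33.7% of FMT_aged cells. Among the chains, H2-Aa had 3289 CPM in FMT_young and 2310 CPM in FMT_aged (0.51), H2-Eb1 had 2315 and 1684 CPM (0.46), and H2-Ab1 had 2207 and 1921 CPM (0.20 [0.13, 0.27]). Cd74 had 10129 CPM in FMT_young and 7717 CPM in FMT_aged (0.39 [0.36, 0.43]). H2-DMa had 413.4 and 302.8 CPM (0.45), and both DM beta genes lay between 0.34 and 0.38. Ciita alone passed 1.5-fold, 1 of 8, where 25.5% of 8195 genes did so in either direction and 7.9% were that much higher. The members' median was 0.42 beside -0.10 over all genes. Over 13 alternative settings the summed ratio stayed positive but ran between 0.035, at a limit of 5% mitochondrial UMIs, and 0.50. At that limit the class held 175 cells in FMT_young and 153 in FMT_aged, in place of 319 and 490. The ratio of Ciita ran between 0.43 and 1.21, and that of H2-Ab1 between -0.20 and 0.30.

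Part of the mature B-like class in FMT_aged carried transcripts of B cell precursors. The surrogate light chain genes Vpreb1 and Igll1 had 28.3 and 9.17 CPM in FMT_young, against 302 and 179 CPM in FMT_aged. Fcer2a, a gene of mature follicular B cells, had 80.8 CPM in FMT_young and 26.6 CPM in FMT_aged. Markers of other cell types also differed in this class. The 12 neutrophil markers summed to 4112 CPM in FMT_young and 1675 CPM in FMT_aged, and the monocyte markers to 1034 and 606 CPM. The plasma cell markers stood the other way, with 1106 and 1349 CPM. The part of these cell types in the class II differences was not tested. Cells with a UMI of Vpreb1, Igll1, Rag1 or Dntt were 4 of 319 in FMT_young (1.25%) and 46 of 490 in FMT_aged (9.39%), and their summed class II level was 7786 CPM and 808 CPM. Without them the summed level was 19372 CPM in FMT_young and 17501 CPM in FMT_aged, a ratio of 0.15 [0.12, 0.17], while Ciita was at 201 and 112 CPM (0.84 [0.57, 1.11]) and H2-Ab1 at 2234 and 2308 CPM (-0.05 [-0.12, 0.02]). The class was made of 2 clusters. In the cluster with 126 and 291 such cells the sum was 16487 CPM in FMT_young and 15925 CPM in FMT_aged (0.05), Ciita was 140 and 66.0 CPM (1.08 [0.67, 1.49]) and H2-Ab1 was 1776 and 1921 CPM (-0.11 [-0.21, -0.02]). In the cluster with 189 and 153 such cells the sum was 23447 and 24003 CPM (-0.03 [-0.07, 0.01]), Ciita was 288 and 303 CPM (-0.07 [-0.43, 0.29]) and H2-Ab1 was 2881 and 3905 CPM (-0.44 [-0.54, -0.33]). Ciita was thus higher in FMT_young in 1 of the 2 clusters, and whether the clusters differ in this was not tested.

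HSC-like cells, named for Hlf, Meis1 and Mecom among their leading genes, numbered 570 in FMT_young and 682 in FMT_aged. Their summed class II level was 1015 CPM in FMT_young and 921.6 CPM in FMT_aged, a log2 ratio of 0.14 [0.08, 0.20]. The 6 FMT_young cells with most member UMIs held 11.2% of them, and the 7 such FMT_aged cells held 5.97%. None of the 8 genes passed 1.5-fold, where 10% of 10706 genes of the class did in either direction, and the members' median was 0.11 beside -0.13 over all genes. Cd74 had 325.3 CPM in FMT_young and 262.9 CPM in FMT_aged (0.31 [0.20, 0.41]). H2-Aa had 172.2 and 153.4 CPM (0.17 [0.02, 0.31]), H2-Eb1 had 111.2 and 97.3 CPM (0.19 [0.01, 0.37]), and H2-Ab1 had 180.7 and 164.8 CPM (0.13 [-0.01, 0.27]). H2-DMa stood the other way, with 174.1 CPM in FMT_young and 190.5 CPM in FMT_aged (-0.13 [-0.27, 0.01]). H2-DMb1 had 38.2 and 39.9 CPM, H2-DMb2 had 17 and 22 UMIs, and Ciita had 40 and 46 UMIs (0.09 [-0.56, 0.73]). The sign of the summed ratio depended on how the class was formed, since it was -0.12 when cells were assigned by marker scores, and it was 0.0049 with each cell thinned to 2000 UMIs.

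The class II transcripts of HSC-like cells were set beside free RNA. Its estimated share of the UMIs of this class, from immunoglobulin genes, was 1.94% in FMT_young and 1.73% in FMT_aged. After thinning, at least 1 member UMI was found in 64.1% of HSC-like cells in FMT_young and 69.6% in FMT_aged, against 7.51% and 7.57% of neutrophil-like cells, which should lack them. Before thinning, the median depth of FMT_young and FMT_aged cells was 7010 and 6929.5 UMIs for the HSC-like class and 5182 and 4921 for the neutrophil-like class, and the unthinned shares were 91.9% and 93.4% against 20.4% and 20.3%. Relative to barcodes with fewer than 100 UMIs, H2-DMa was at 205% in FMT_young and 189% in FMT_aged and Ciita at 160% and 109%, while Cd74 was at 59.9% and 39.9%. The classical chains were also under free RNA in both libraries. H2-Aa was at 94.9% in FMT_young and 57.5% in FMT_aged, H2-Ab1 at 89.0% and 55.5%, and H2-Eb1 at 83.0% and 51.1%. H2-DMb1 was at 113% and 86.1%, and H2-DMb2 at 43.1% and 32.6%. These percentages compare levels and are not shares of free RNA in the cells. The B cell marker Cd79a had 8.24 CPM in FMT_young and 2.06 CPM in FMT_aged, Xcr1 was at 0 in both, and Clec9a had 0.458 and 0.374 CPM. Without the cells with a UMI of Cd79a or Ms4a1 the sum was 992 CPM in FMT_young and 912 CPM in FMT_aged. Cells with 3 or more member UMIs after thinning were 27.6% and 30%, and 2.83% and 2.35% held 10 to 29. Among cells with a UMI of Procr or Mecom, genes of long-term stem cells (413 and 512 cells), the level was 1073 CPM in FMT_young and 985 CPM in FMT_aged, and among the others 845 and 705 CPM.

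**Figure D5:**
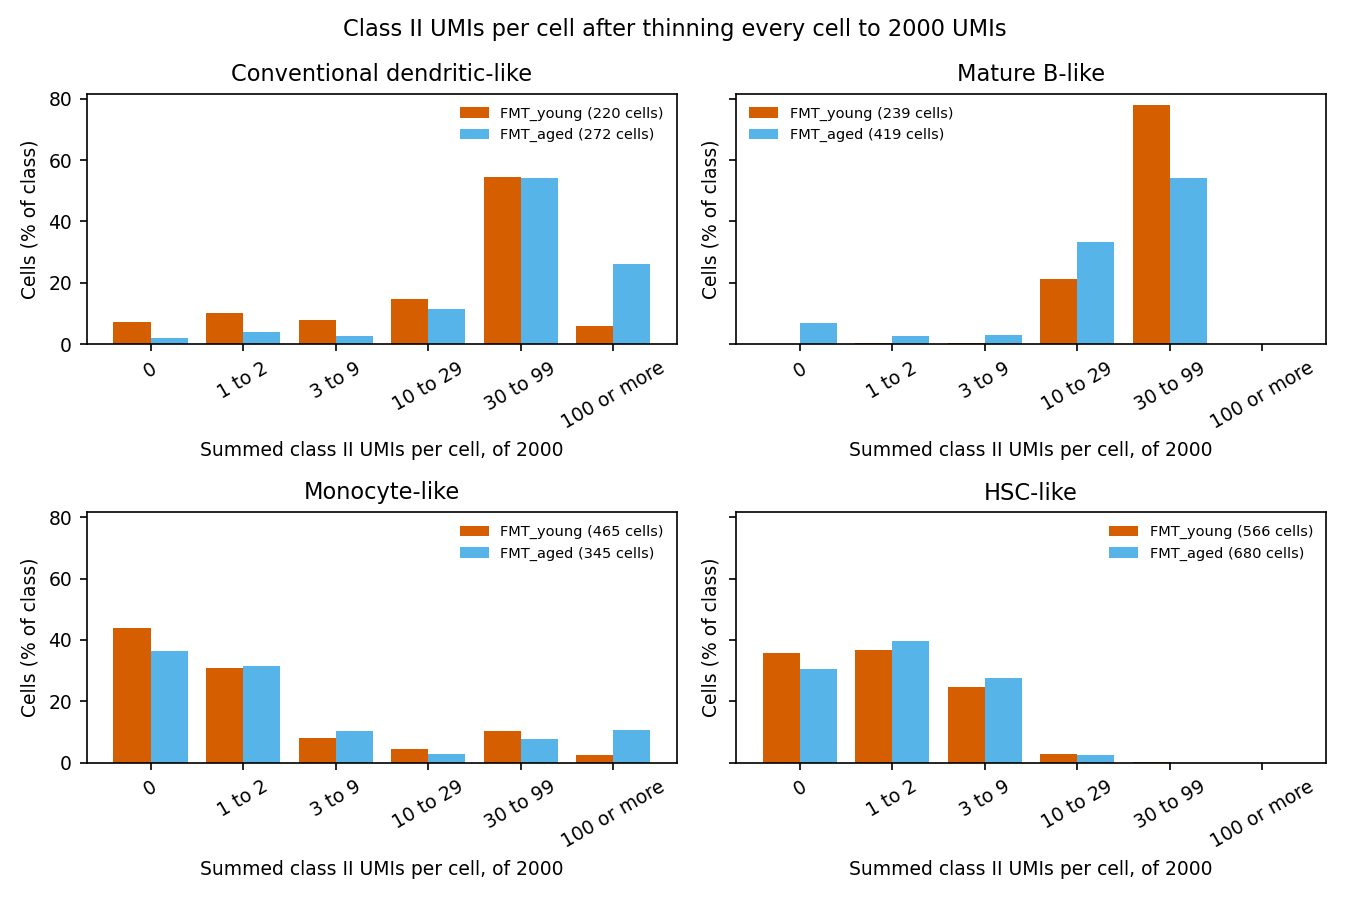
Share of cells in percent (vertical axis) by the number of member UMIs in a cell after thinning to 2000 UMIs (horizontal axis, bins), for 4 classes, with FMT_young left of FMT_aged. In conventional dendritic-like cells the bin of 100 or more holds 5.91% and 26.1%, and in HSC-like cells the bin of 0 holds 35.9% and 30.4%.

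In the other mononuclear phagocyte classes the members were also lower in FMT_young. Monocyte-like cells (490 and 367) had 4244 CPM in FMT_young and 7349 CPM in FMT_aged (-0.79 [-0.82, -0.76]), and 6 of 8 genes were lower by 1.5-fold or more, where 4.07% of genes were and 9.13% differed in either direction. H2-Ab1 had 582 CPM in FMT_young and 1256 CPM in FMT_aged (-1.11), Cd74 had 2006 and 3060 CPM (-0.61), and Ciita had 34.3 and 61.3 CPM (-0.84). The editor chains were at both ends, with H2-DMb1 (106 and 130 CPM, -0.30) and H2-DMa (259 and 340 CPM, -0.39) differing least and H2-DMb2 most (16.2 CPM in FMT_young and 49.2 CPM in FMT_aged, -1.61 [-2.03, -1.20]). The class II level was held by few cells of the class, since the median thinned cell had 1 member UMI in both libraries and the 95th percentile was 71.8 in FMT_young and 139.8 in FMT_aged. Cells with a UMI of the dendritic genes Flt3, Cd209a or Clec10a (173 and 142) had 8217 CPM in FMT_young and 13833 CPM in FMT_aged, and the remaining cells (317 and 225) had 1617 and 1987 CPM (-0.30). The ratio of this class was 0.48, with the opposite sign, when each library was clustered alone.

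Plasmacytoid dendritic-like cells (141 and 54) had 5597 CPM in FMT_young and 9055 CPM in FMT_aged (-0.69). As a mean over cells the summed ratio was -0.34. In FMT_aged 1 cell held 22.7% of the member UMIs of the class, and in FMT_young the 2 highest cells held 7.13%. In this class 6 of 8 genes were lower by 1.5-fold or more, where 11.2% of genes were and 21.3% differed in either direction. H2-Ab1 had 635 CPM in FMT_young and 1346 CPM in FMT_aged (-1.08) and Cd74 had 2839 and 4301 CPM (-0.60), while H2-DMa had 447 and 518 CPM (-0.21 [-0.47, 0.06]). Ciita had 25.6 CPM in FMT_young and 86.8 CPM in FMT_aged (-1.76 [-2.61, -0.92]), from 24 and 28 UMIs. The 12 neutrophil markers summed to 2606 CPM in FMT_young and 226 CPM in FMT_aged in this class, and their part in the differences was not tested. A smaller difference of H2-DMa and H2-DMb1 than of the classical chains was common to the dendritic, monocyte and plasmacytoid classes.

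Among the members, plasma cell-like cells (1141 and 714) held mostly Cd74. Cd74 had 1144 CPM in FMT_young and 2548 CPM in FMT_aged (-1.16 [-1.18, -1.13]) and made up 87.1% and 79.98% of the members' UMIs, against 53.0% and 53.4% in mature B-like cells. Ciita had 11 UMIs in 9 cells in FMT_young and 4 UMIs in 3 cells in FMT_aged. Prdm1, which encodes the plasma cell factor known to repress Ciita, had 80.3 CPM in FMT_young and 75.8 CPM in FMT_aged. H2-Aa had 26.9 CPM in FMT_young and 164 CPM in FMT_aged (-2.61) and H2-Ab1 had 88.4 and 281 CPM (-1.67). All 7 genes with enough UMIs were lower by 1.5-fold or more, where 14.2% of genes were and 19.5% differed in either direction. A Cd74 UMI with no UMI of H2-Aa or H2-Ab1 was found in 65.2% of thinned cells in FMT_young and 54.4% in FMT_aged. UMIs of both I-A chains were found in 1.14% and 13.4%. This class came from different clusters in the libraries: 911 FMT_young and 5 FMT_aged cells were in a cluster led by Igkv1-117, 4 and 321 in another led by Igkv6-15, and 226 and 388 in the remaining cluster, led by Igha. Library and cluster cannot be told apart in the first 2 of these.

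Among progenitors, the editor genes were the main class II transcripts. In monocyte progenitor-like cells (1267 and 1279) H2-DMa had 133.3 CPM in FMT_young and 139.4 CPM in FMT_aged and H2-DMb1 had 46.2 and 46.6 CPM. H2-Aa had 4.96 and 5.59 CPM there, and Ciita had 0.213 and 0.145 CPM. H2-DMa stood at 157% of its level in free RNA in FMT_young and 138% in FMT_aged. Its log2 ratio was -0.06 [-0.12, -0.0049], and the summed ratio was -0.0042 [-0.05, 0.04]. Cd74, with 16.5 CPM in FMT_young and 10.9 CPM in FMT_aged (0.60), was the 1 of 7 genes past 1.5-fold, where 6.44% of genes were in either direction and 4.08% were that much higher. In GMP-like cells (1594 and 1661) H2-DMa had 52.6 and 56.1 CPM and H2-Ab1 had 29.9 and 30.8 CPM, and Cd74, with 17.2 and 10.6 CPM (0.70), was again the 1 of 7, where 7.4% of genes were in either direction and 4.04% upward. In MPP-like cells (466 and 638) H2-DMa had 174 CPM in FMT_young and 182 CPM in FMT_aged, close to its level in HSC-like cells, while Cd74 had 82.2 and 40.8 CPM (1.01 [0.83, 1.20]). There 3 of 7 genes passed 1.5-fold (Cd74, H2-Eb1 and H2-DMb2), all higher in FMT_young, where 8.04% of genes did in either direction and 3.83% upward. The differences of these genes in MPP-like cells, and of Cd74 in GMP-like and monocyte progenitor-like cells, took the opposite sign under at least 1 alternative setting each.

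Lymphoid and granulocytic classes held low levels. T, NK or innate lymphoid-like cells (1040 and 1473) had 423.7 CPM in FMT_young and 199.3 CPM in FMT_aged, and 5 of 6 genes were higher by 1.5-fold or more, where 3.81% of genes were and 10% differed in either direction. Cd74 had 222 CPM in FMT_young and 88.0 CPM in FMT_aged there, beside Cd79a at 26.5 and 2.58 CPM, and without the cells with a UMI of Cd79a or Ms4a1 the sum was 210 and 202 CPM. Basophil, eosinophil or mast-like cells (249 and 375) had 3 of 6 genes higher by 1.5-fold or more, where 5.07% of genes were and 12% differed in either direction, and Cd74 had 64.1 CPM in FMT_young and 10.97 CPM in FMT_aged, a direction that turned under 3 alternative settings. Without the cells with a UMI of Cd79a or Ms4a1 the sum in these cells was 213 CPM in FMT_young and 194 CPM in FMT_aged. Neutrophil-like cells (935 and 774) had 53.9 and 94.1 CPM, at most 54% of free RNA for each gene. There 4 of 7 genes were lower by 1.5-fold or more, where 4.06% of genes were, and 1 was higher, where 4.59% were, with 8.64% in either direction. Without the cells with a UMI of Cd79a or Ms4a1 the sum was 41.9 CPM in FMT_young and 49.9 CPM in FMT_aged, and the 8 FMT_aged cells with most member UMIs held 61.4% of them. The sum, H2-Ab1, H2-Eb1 and Cd74 took the opposite sign under alternative settings.

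The other genes of the pathway, a list of 37 of which 35 were in the tables, had medians between -0.26, in plasma cell-like cells, and 0.23, in mature B-like cells. In plasma cell-like cells 2 were higher and 8 lower by 1.5-fold or more of 32 with enough UMIs, where 5.3% and 14.2% of all genes were. The list held further class II chains, proteases, regulators of surface turnover, costimulatory genes and transcription factors upstream of the members or at their promoters. In conventional dendritic-like cells 28 had at least 30 UMIs, 4 were higher and 4 lower by 1.5-fold or more, where 8.15% and 5.01% of all genes of the class were, and the list's median was 0.00094. Irf4, a transcription factor of dendritic cells and of the B lineage up to plasma cells, had 14.3 CPM in FMT_young and 2.29 CPM in FMT_aged (2.64 [1.54, 3.94]). In the same class the plasma cell markers summed to 1346 CPM in FMT_young and 210 CPM in FMT_aged. Their part in the Irf4 difference was not tested. The protease gene Ctsl had 43.5 and 19.7 CPM (1.14). Cd86, a costimulatory ligand, was lower, with 36.5 CPM in FMT_young and 71.0 CPM in FMT_aged (-0.96 [-1.29, -0.64]). H2-Oa and H2-Ob, whose product restrains H2-DM, had 91.4 and 72.4 CPM in FMT_young and 144 and 102 CPM in FMT_aged.

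In mature B-like cells 34 listed genes had enough UMIs, 7 were higher and 2 lower by 1.5-fold or more, where 7.9% and 17.6% of all genes were, and the median was 0.23. Cd83, which stabilises class II at the surface, had 198 CPM in FMT_young and 74.9 CPM in FMT_aged (1.40 [1.12, 1.68]), and the costimulatory gene Icosl had 32.5 and 12.1 CPM (1.43 [0.70, 2.17]). Cd1d1, which presents lipids, had 10.8 CPM in FMT_young and 25.8 CPM in FMT_aged (-1.25), and the B cell factor Ebf1 had 949 and 1054 CPM (-0.15 [-0.25, -0.05]). H2-Oa had 209 and 117 CPM (0.84) and H2-Ob 378 and 239 CPM (0.66). In HSC-like cells 26 had enough UMIs, 3 were higher and 1 lower, where 10% of all genes passed in either direction, and the median was 0.01. Irf8, a factor of monocyte and dendritic fate, had 34.1 CPM in FMT_young and 19.1 CPM in FMT_aged (0.84 [0.46, 1.21]), and Ctsl had 87.4 and 61.8 CPM (0.50). March8, a ligase that removes surface proteins, had 6.86 and 11.98 CPM (-0.80 [-1.48, -0.16]).

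Across the 12 classes of each library, some members moved closely together and others less so. These correlations of log2(CPM + 10) are descriptions over classes that share a library and its free RNA. The Pearson r of H2-Aa with H2-Eb1 was 0.99 in FMT_young and 1.00 in FMT_aged, and that of H2-DMa with H2-DMb1 was 0.94 in both. The paralogues H2-DMb1 and H2-DMb2 had 0.55 and 0.64, below Cd74 with Ciita at 0.87 and 0.86. Mean r with the summed members, a sum that includes the gene itself, was 0.98 for H2-Ab1 and 0.77 for H2-DMa. Outside the members, among 5510 genes, the 10 with the highest mean r were Cdk14, Ryr1 and Cd2ap (0.94 each), Epb41l2 (0.92), Btla and Cd180 (0.91 each), Filip1l and Clic4 (0.89 each), and Lgmn and Rraga (0.88 each). Cdk14, a cyclin-dependent kinase, peaked in conventional dendritic-like cells with 74.3 CPM in FMT_young and 84.7 CPM in FMT_aged. Lgmn, an endosomal protease that starts invariant chain cleavage, peaked in monocyte-like cells with 47.4 and 54.1 CPM.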

How the data were processed

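The authors deposited matrices of counts, that is, UMIs of each gene in each barcode with no normalization. They were made with Cell Ranger and mm10, as given in the submitters' processing notes, and the matrices' headers name version 3.1.0. The deposited gene and barcode lists (unit other) hold names only. Each library lists 6794880 barcodes, empty ones included, with 214982156 UMIs in FMT_young and 207642851 in FMT_aged, so cells were called here with at least 1000 UMIs, 500 genes and at most 10% mitochondrial UMIs. The highest doublet scores, 0.8% per 1000 called cells, were removed (1139 and 1031 cells). Cells of both libraries were then clustered jointly on 2000 variable genes, members left out (40 principal components, 20 neighbours, Leiden resolution 1.0). A cluster was named from at least 3 markers found in 10% of its cells at 1.5 times the level elsewhere. After the clusters were seen, those outside the granulocyte and monocyte classes with a neutrophil marker among their 10 leading genes were left unnamed, and the splits by marker UMIs were added then too. A difference from the study may come from these rebuilt names.

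The members and lists were chosen with earlier results of these data known. All 8 members were named. Of the pathway genes, the 2 with the most extreme near interval bound were named in each direction, apart from a gene that is not reported here, and like genes as the 10 with the highest mean r among genes with at least 200 UMIs and 50 CPM in 1 class. Ratios used exact conditional binomial intervals, CPM exact Poisson and shares Clopper-Pearson intervals, all at 95%, with a prior count of 0.5 at a count of 0. The 1.5-fold limit needed 30 UMIs in both libraries together. The intervals and fold calls were run on simulated counts with counting error only, which is the error the intervals assume. Spread between cells or libraries was not simulated, so that run cannot show how they behave under it. Alternatives were other cell filters, no doublet removal, resolution 2.0, clustering with the members or of each library alone, classes by marker score, TMM scaling, immunoglobulin genes left out of totals, free RNA subtraction, means over cells and thinning to 2000 UMIs. The subtracted share of free RNA was estimated from immunoglobulin genes. Mature B-like and plasma cell-like cells were given the median share of the other classes, 4.03% in FMT_young and 1.88% in FMT_aged. Tools were Python 3.11.15, numpy 2.4.6, scipy 1.17.1, pandas 2.3.3, scikit-learn 1.9.0, igraph 0.11.9, leidenalg 0.10.2, matplotlib 3.10.9, and edgeR 4.0.16 in R 4.3.3 for TMM factors alone.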

Additional observations from a re-analysis of the deposited data

How the results depend on the processing

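No paired analysis was possible because each group has 1 library. Values are log2 ratios of FMT_young over FMT_aged, and the cause of each shift was not tested. The summed ratio in conventional dendritic-like cells (-0.73) stayed negative in all 15 alternatives. It was -0.67 without doublet removal, -0.78 at resolution 2.0, -0.71 with the members in the clustering, -0.56 by marker score, -0.85 with each library clustered alone, -0.78 by TMM, -0.71 without immunoglobulin genes, -0.57 after free RNA subtraction, -0.70 as a mean over cells, -0.71 thinned, -0.68 with Xcr1 or Clec9a, -0.21 without Ly6c2 or Mpo, and -0.76 without Cd79a or Ms4a1. In HSC-like cells (0.14) it was -0.12 by marker score, 0.30 at 5% mitochondrial UMIs, 0.25 without doublet removal, 0.26 with the members in the clustering, 0.24 clustered alone, 0.26 by TMM, 0.072 over cells and 0.0049 thinned. At resolution 2.0 it was 0.30, from 140 FMT_young and 137 FMT_aged cells in place of 570 and 682. In mature B-like cells (0.40) it was positive throughout: 0.12 at 2000 UMIs, 0.035 at 5% mitochondrial UMIs, 0.25 without doublet removal, 0.13 at resolution 2.0, 0.092 by marker score, 0.13 clustered alone, 0.50 by TMM, 0.43 after free RNA subtraction, 0.30 over cells, 0.30 thinned and 0.15 without precursor transcripts. The dendritic over B ratio (0.60) was, in the same order of settings, 0.46, 0.29, 0.57, 0.41, 0.79 and 0.47, then 0.64 with the members in the clustering, 0.58 without immunoglobulin genes, 0.71 after free RNA subtraction, 0.49 over cells, 0.51 thinned and 0.45 without precursor transcripts.

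In mature B-like cells H2-Ab1 (0.20) was negative in 6 of 13 settings, lowest at -0.20 with 5% mitochondrial UMIs. Among values past 1.5-fold, these changed sign. In basophil, eosinophil or mast-like cells, H2-Aa was -1.07 by marker score and -0.10 clustered alone. H2-Eb1 there was -0.25 at 2000 UMIs, -0.35 at 5% mitochondrial UMIs, -1.89 by marker score, -0.31 clustered alone and -4.19 after free RNA subtraction. Cd74 there was -0.25 at 5% mitochondrial UMIs, -0.88 by marker score and -3.61 after free RNA subtraction. In MPP-like cells H2-Eb1 was -0.071 at 2000 UMIs, -0.55 at 5% mitochondrial UMIs, -0.0060 with the members in the clustering, -0.31 by marker score and -0.87 clustered alone, H2-DMb2 -0.47 by marker score and -0.55 clustered alone, and Cd74 -0.49 clustered alone. Cd74 was -0.14 in GMP-like cells without doublet removal, and -0.36 over cells and -0.21 thinned in monocyte progenitor-like cells. In conventional dendritic-like cells H2-DMb2 was 0.46 without Ly6c2 or Mpo. In monocyte-like cells clustered alone, the sum was 0.48, H2-Aa 0.74, H2-Ab1 0.46, H2-Eb1 1.08, Cd74 0.58 and Ciita 0.43. There H2-Eb1 was 0.26 at resolution 2.0, and by marker score H2-DMb2 was 0.072 and Cd74 0.12. In neutrophil-like cells at resolution 2.0 and clustered alone, the sum was 0.17 and 0.21, H2-Ab1 0.37 and 0.31, H2-Eb1 0.28 and 0.61, and Cd74 0.042 and 0.18. H2-Eb1 was also 0.29 at 5% mitochondrial UMIs, 0.076 without doublet removal and 0.58 without Cd79a or Ms4a1. In T, NK or innate lymphoid-like cells, H2-Aa was -0.18 by marker score and -0.36 without Cd79a or Ms4a1. H2-Ab1 was -0.080 without doublet removal, -0.43 by marker score and -0.64 without Cd79a or Ms4a1, and H2-DMb1 was -0.45 without doublet removal. With a minimum of 1 UMI the share of genes past 1.5-fold was 34.6% in the dendritic, 39.7% in the B and 31.1% in the HSC class, and with a minimum of 100 it was 8.16%, 19.4% and 5.91%. Ciita in mature B-like cells had 240 and 230 UMIs and ranged between 0.43 and 1.21.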

Other observations

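Macrophage-like cells, under the minimum of 50 cells in 1 library (104 in FMT_young, 29 in FMT_aged), had summed class II levels of 8607 CPM in FMT_young and 29529 CPM in FMT_aged, beside Hbb-bs, a haemoglobin gene, at 3615 and 231 CPM. H2-Aa had 1848 CPM in FMT_young and 7088 CPM in FMT_aged in these cells, and H2-DMb2 had 14 UMIs in FMT_young and 0 in FMT_aged. Unnamed cells (2255 and 1512) had Cd74 at 149 CPM in FMT_young and 92.7 CPM in FMT_aged.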
